A study of Sus scrofa with 18 samples.

Results

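The genes of the neuronal intermediate filaments were followed through fetal brain development in the domestic pig. They are NEFL, NEFM and NEFH, the light, medium and heavy neurofilament subunits, INA (alpha-internexin) and PRPH (peripherin). Members were taken by gene name from the gene-wise count table, where 4 of the 5 names (NEFL, NEFH, INA and PRPH) were found among 31908 genes, and NEFM is missing by name. Each of the 4 named members passed the filter on low counts, as did 16325 genes in all. Whole brains were dissected from Landrace × Large White gilts bred by artificial insemination to a boar of the LR-M6 line, at gestation day (GD) 45, 60 and 90. Each day has 3 female and 3 male fetuses, untreated throughout, so 18 libraries form 6 groups of sex and day. Library totals ran from 15118843 to 19729783 counts, with a median of 16413097, after the repeat runs of 4 libraries were added up. The labels do not name litters, but at each day 1 female and 1 male share each litter size, so fetuses of a group are taken as separate animals and pairs across the sexes as possible littermates.

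Intermediate filaments are the ropes that fill the axon and set its calibre. NEFL is the subunit on which the neurofilament is built, and NEFM and NEFH join it with long tail domains that are phosphorylated in the axon. INA is the filament protein of young central neurons and later co-assembles with the triplet, while PRPH is typical of peripheral neurons and of those central neurons that send axons out of the brain. In mammals the heavy subunit is known to appear later than the light one. In whole brain, fewer neurons and less RNA per neuron cannot be told apart.

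NEFL and INA, the pair whose order reverses below, share a coding exon of 125 bases near the end of the rod domain, printed here because it shows how alike the genes are, which bears on whether reads can be assigned to one of them. The sequences were read from the Sscrofa11.1 genome at RefSeq coding exons, each of which has the same interval as an exon of the deposited exon table: NEFL at chr14:8994627-8994751 on the minus strand and INA at chr14:114237134-114237258 on the plus strand. Capitals mark the 93 of 125 positions at which both hold the same base.
NEFL: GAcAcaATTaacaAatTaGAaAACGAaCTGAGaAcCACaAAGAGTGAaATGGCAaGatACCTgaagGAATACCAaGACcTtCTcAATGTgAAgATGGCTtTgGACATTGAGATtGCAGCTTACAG
INA: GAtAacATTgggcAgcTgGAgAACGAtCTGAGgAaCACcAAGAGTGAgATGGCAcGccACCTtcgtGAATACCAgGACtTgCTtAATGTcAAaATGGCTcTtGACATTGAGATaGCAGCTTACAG
Over this exon 74.4% of bases were identical. The longest run of identical coding bases between the genes was 17 bases, which is shorter than the 150 bases of a read.

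NEFL (ENSSSCG00000009649, chr14:8990750-8997300) changed little from GD45 to GD60 and then rose 2.56-fold by GD90. In CPM (counts scaled to a common library size), the GD45 females were at 217, 332 and 236 and the males at 269.8, 189 and 142. At GD60 the females were at 288, 291 and 246 and the males at 256, 218 and 153. At GD90 the females were at 593, 555 and 599 and the males at 598, 589 and 650.5. Every GD90 library lay above every library of the earlier days, while GD45 and GD60 overlapped. Changes were tested by the edgeR quasi-likelihood test, averaged over the sexes, with p-values adjusted over all 16325 genes by the Benjamini-Hochberg method. The log2 change was 0.06 ± 0.13 (SE) from GD45 to GD60 (edgeR adjusted p = 0.782), 1.36 ± 0.13 from GD60 to GD90 (adjusted p = 5.01e-07) and 1.42 ± 0.13 from GD45 to GD90 (adjusted p = 1.07e-07).

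NEFH (ENSSSCG00000009979, chr14:46559860-46569910), which lengthens the filament's side arms, started lowest per length and rose most of the members. At GD45 the females were at 5.57, 12.2 and 7.77 CPM and the males at 10.3, 2.74 and 2.90 CPM. At GD60 the females were at 13.2, 13.3 and 7.75 CPM and the males at 11.6, 7.89 and 3.56 CPM. At GD90 the females were at 62.1, 65.8 and 59.99 CPM and the males at 70.9, 64.5 and 63.5 CPM. The GD90 libraries stood close together and far above all others, and the GD45 and GD60 libraries overlapped. NEFH rose 7.12-fold from GD60 to GD90 (log2 change 2.83 ± 0.30 SE, edgeR adjusted p = 1.12e-06) and 9.81-fold from GD45 to GD90 (3.29 ± 0.30, adjusted p = 9.68e-08). Of the 16325 genes tested, 135 had a larger log2 change between GD45 and GD90. From GD45 to GD60 the log2 change was 0.46 ± 0.29, with an edgeR adjusted p of 0.314.

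INA (ENSSSCG00000010595, chr14:114227993-114240560), the filament gene of young central neurons, fell first and then partly came back. At GD45 the females were at 273, 328 and 329 CPM and the males at 288, 226 and 206 CPM. At GD60 the females were at 215, 213 and 241 CPM and the males at 202, 166 and 138 CPM. At GD90 the females were at 235, 252 and 235 CPM and the males at 245, 246 and 241 CPM. Within each sex no GD60 library reached the lowest GD45 library, although the days overlapped once the sexes were pooled. INA fell by 0.49 ± 0.09 on the log2 scale from GD45 to GD60 (1.41-fold lower, edgeR adjusted p = 0.000991) and rose by 0.36 ± 0.09 from GD60 to GD90 (1.28-fold, adjusted p = 0.00401). GD90 against GD45 did not pass (log2 change -0.14 ± 0.09, adjusted p = 0.195).

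PRPH (ENSSSCG00000000195, chr5:15285294-15288804) was high in some GD45 libraries and low in all later ones. At GD45 the females were at 13.8, 37.0 and 24.6 CPM and the males at 23.2, 4.31 and 13.1 CPM. At GD60 the females were at 10.3, 7.33 and 4.76 CPM and the males at 5.78, 7.06 and 2.53 CPM. At GD90 the females were at 4.37, 4.83 and 4.99 CPM and the males at 7.47, 5.35 and 5.42 CPM. The GD45 libraries spanned a far wider range than the others, and the lowest of them, male replicate 14, lay inside the range of the later days. PRPH fell by 1.59 ± 0.34 on the log2 scale from GD45 to GD60 (3.02-fold lower, edgeR adjusted p = 0.00365) and was lower at GD90 than at GD45 by a log2 change of -1.75 ± 0.34 (3.37-fold, adjusted p = 0.000343). Between GD60 and GD90 the log2 change was -0.16 ± 0.34, with an edgeR adjusted p of 0.74.

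**Figure D1:**
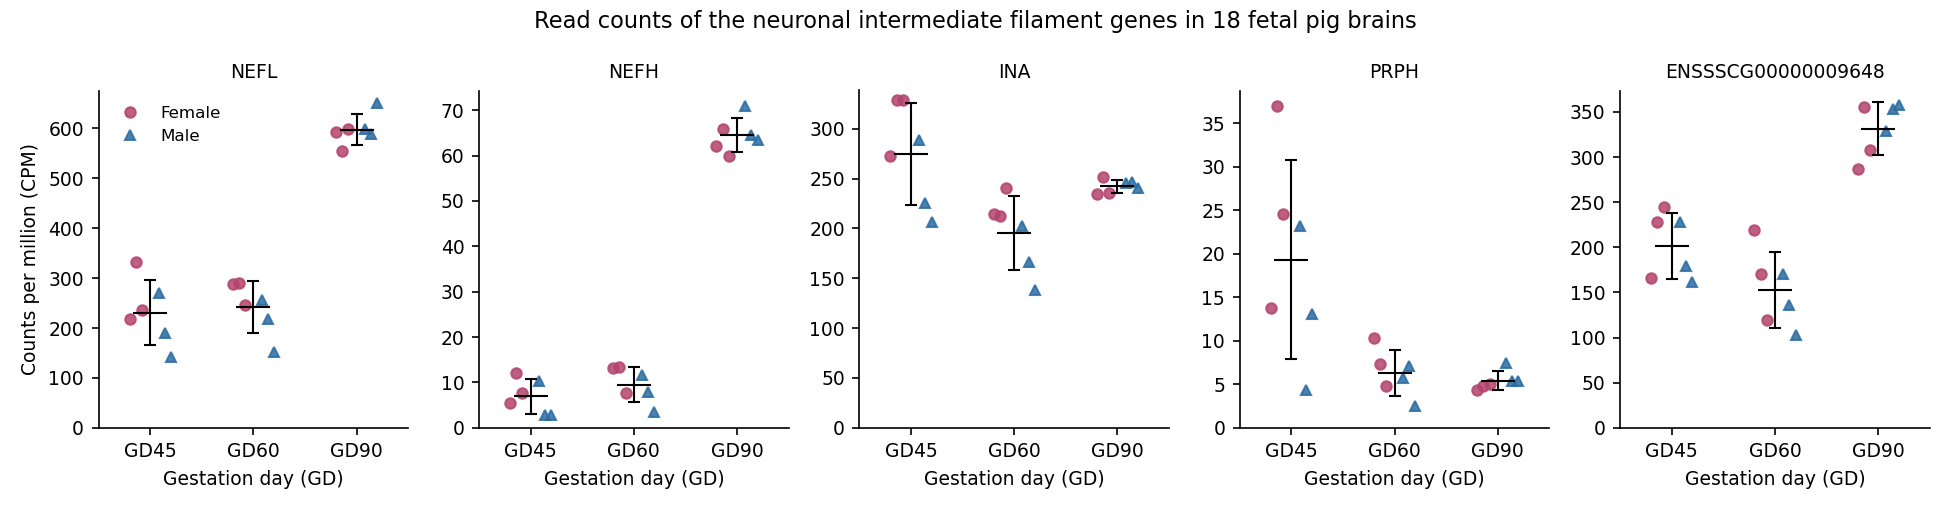
CPM of the 4 named members and of the unnamed gene ENSSSCG00000009648 by gestation day, 1 point per fetus (circles females, triangles males), with lines at the day means and bars for the SD of 6 libraries. NEFL and NEFH stand at 555 to 650.5 CPM and 59.99 to 70.9 CPM at GD90, above every earlier library, INA is lowest at GD60, and PRPH spans 4.31 to 37.0 CPM at GD45.

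Next to NEFL, 22837 bases away on chromosome 14, lies a gene without a name in the file, ENSSSCG00000009648 (chr14:8961911-8967912, plus strand). It shares 4 of the 4 internal exon boundaries of RefSeq's NEFM and covers the whole of RefSeq's NEFM coding sequence. It is described by its identifier, beside the named members and outside their counts. At GD45 its values were 166, 228 and 245 CPM in females and 228, 179 and 161 CPM in males. At GD60 they were 219, 170.0 and 119 CPM in females and 170.3, 136 and 103 CPM in males. At GD90 they were 287, 356 and 308 CPM in females and 329, 353 and 357 CPM in males. All GD90 libraries lay above all earlier ones. The log2 change was -0.41 ± 0.13 from GD45 to GD60 (edgeR adjusted p = 0.0417), 1.17 ± 0.13 from GD60 to GD90 (2.25-fold, adjusted p = 3.03e-06) and 0.76 ± 0.13 from GD45 to GD90 (adjusted p = 0.00012). The first of these is near the threshold, and 11 of the 18 fits that left out a single library ended it.

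Over the 4 named members, none was called higher and 2 (INA and PRPH) lower from GD45 to GD60, where 16.7% of all genes tested were called, 9.35% higher and 7.37% lower. The median log2 change was -0.21 in the members and -0.01 over all genes. From GD60 to GD90, 3 rose (NEFL, NEFH and INA) and none fell, against 42.4% of all genes called, 21.4% higher and 20.9% lower. The median was 0.86 in the members and -0.01 over all genes. Between GD45 and GD90, 2 were higher (NEFL and NEFH) and 1 lower (PRPH), against 57.5% of genes called, 28.3% higher and 29.3% lower, with medians of 0.64 and -0.03. With this share of genes called, a call by itself does not set the members apart.

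Levels of different genes were compared per length, as FPKM (CPM divided by the gene's length in kilobases). At GD45 INA was the most abundant member at 83.2 ± 15.5 FPKM (SD, n = 6), followed by ENSSSCG00000009648 at 49.7 ± 9.04 and NEFL at 45.0 ± 12.8, which overlapped, then PRPH at 8.40 ± 4.96 and NEFH at 1.53 ± 0.86, whose ranges also met. At GD60 INA was at 59.2 ± 11.2 FPKM, NEFL at 47.1 ± 10.0, ENSSSCG00000009648 at 37.8 ± 10.4, PRPH at 2.74 ± 1.15 and NEFH at 2.12 ± 0.85, and each of these overlapped its neighbour in the order except ENSSSCG00000009648 and PRPH. At GD90 NEFL led at 116 ± 5.99 FPKM, above ENSSSCG00000009648 at 81.9 ± 7.24 and INA at 73.3 ± 2.03, which overlapped, and NEFH at 14.3 ± 0.83 stood above PRPH at 2.35 ± 0.47. By the means, the lead among the filament transcripts passed from INA to NEFL between GD60 and GD90, and the last place from NEFH to PRPH. Gene lengths count every annotated exon, so the order rests on that annotation. The 5 genes together came to 188 ± 40.4 FPKM at GD45, 149 ± 29.9 at GD60 and 288 ± 10.9 at GD90. INA made up 44.6%, 40.04% and 25.5% of this sum at the 3 days, and NEFL 23.7%, 31.5% and 40.4%. NEFH rose from 0.77% through 1.37% to 4.97%, PRPH went from 4.22% through 1.79% to 0.81%, and ENSSSCG00000009648 held 26.7%, 25.3% and 28.4%.

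**Figure D2:**
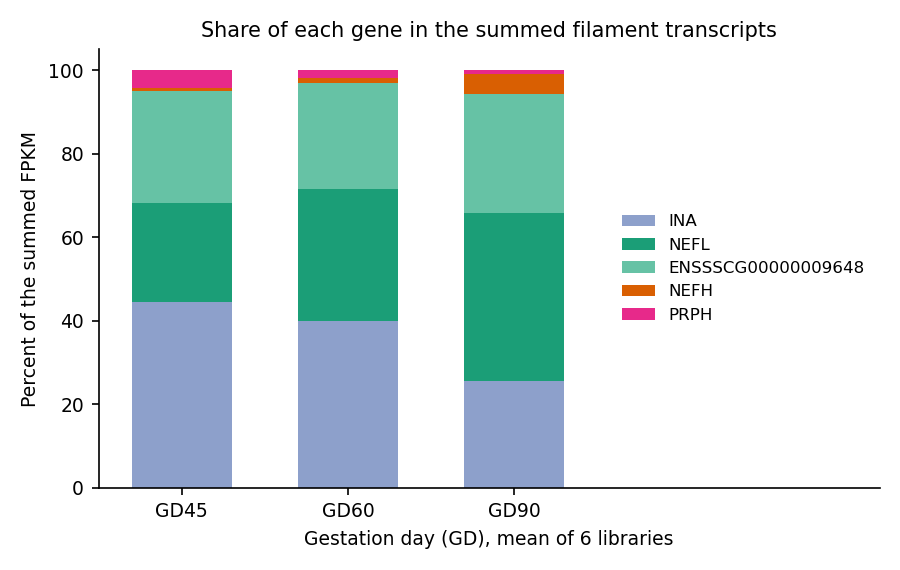
Mean share (%) of each gene in the summed FPKM of the 4 named members and ENSSSCG00000009648, by gestation day (6 libraries a day). INA goes from 44.6% to 25.5% and NEFL from 23.7% to 40.4% between GD45 and GD90.

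The ratios to NEFL carry the change in filament make-up within a library, free of the library's total. Per length, NEFH at GD45 was 2.92%, 4.18% and 3.76% of NEFL in females and 4.37%, 1.65% and 2.33% in males. At GD60 it was 5.21%, 5.24% and 3.60% in females and 5.14%, 4.13% and 2.66% in males. At GD90 it was 11.9%, 13.5% and 11.4% in females and 13.5%, 12.5% and 11.13% in males. The mean was 3.20% ± 1.08 (SD, n = 6), 4.33% ± 1.06 and 12.3% ± 1.03, and the GD90 libraries did not overlap the earlier ones. In an exact permutation test of the log2 ratios, two-sided with 924 regroupings, NEFH gained on NEFL by 1.54 from GD60 to GD90 (2.92-fold) and by 2.01 from GD45 to GD90 (4.04-fold). Both reached an exact p of 0.00216, the smallest that 6 against 6 allows, and 0.00325 after Benjamini-Hochberg adjustment over 12 ratio tests. Over 26 alternative settings these 2 gains ran from 0.79 to 1.68 and from 1.47 to 2.44. From GD45 to GD60 the log2 difference was 0.47 (adjusted exact p = 0.116).

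INA moved the other way against NEFL, and at every step. At GD45 the INA to NEFL ratio was 195%, 154% and 217% in females and 166%, 185.5% and 226% in males. At GD60 it was 116%, 114% and 152% in females and 123%, 119% and 141% in males. At GD90 it was 61.6%, 70.6% and 61.1% in females and 63.7%, 64.97% and 57.5% in males. The mean went from 190.5% ± 28.1 (SD, n = 6) to 127% ± 15.6 and 63.2% ± 4.42, and no pair of days overlapped. The log2 ratio fell by 0.58 from GD45 to GD60, fell by 1.00 from GD60 to GD90 and was -1.58 over the whole span, each with an adjusted exact permutation p of 0.00325. So INA, whose own level came back in part between GD60 and GD90, lost ground to NEFL in that interval too.

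**Figure D3:**
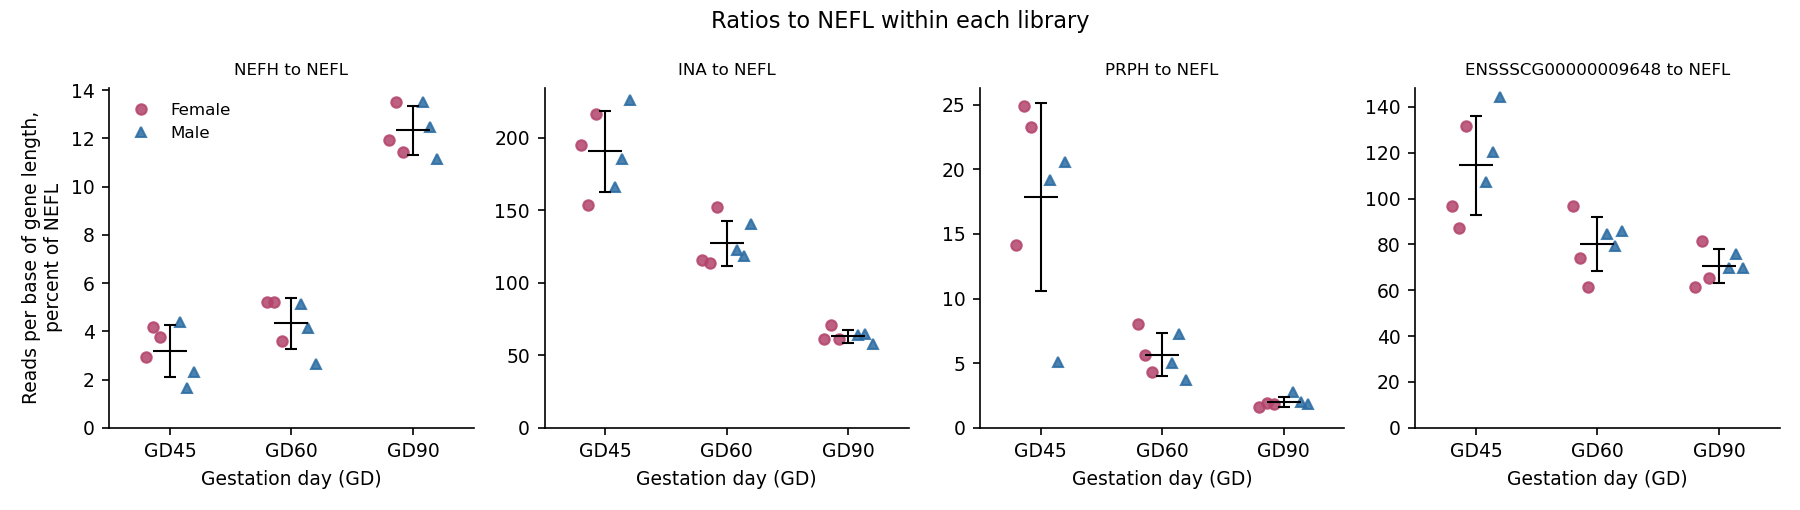
Ratios of NEFH, INA, PRPH and ENSSSCG00000009648 to NEFL per length (%) by gestation day, 1 point per fetus (circles females, triangles males), with lines at the day means and bars for the SD of 6 libraries. The heavy subunit goes from 3.20% to 12.3% of NEFL and INA from 190.5% to 63.2%, with no overlap between GD60 and GD90 in these 2 ratios.

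The other ratios to NEFL fell. PRPH was 17.9% ± 7.28 (SD, n = 6) of NEFL per length at GD45, 5.66% ± 1.67 at GD60 and 2.02% ± 0.40 at GD90, with log2 differences of -1.54 (adjusted exact permutation p = 0.0104) and -1.45 (0.00325) over the steps. ENSSSCG00000009648 was at 114.5% ± 21.6, 80.3% ± 11.8 and 70.6% ± 7.23, with log2 differences of -0.51 (adjusted exact permutation p = 0.00577) and -0.18 (0.134). With litter means in place of libraries, 3 against 3, no test can go below an exact p of 0.1. That value was reached by both steps of INA and of PRPH and by the second step of NEFH, whose first step gave 0.2.

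The members were also set against 10 pan-neuronal genes, led by TUBB3 (neuronal tubulin) and STMN2 (a tubulin-binding protein of growing axons). Within the list 3 rose and none fell from GD45 to GD60, and 3 rose and 1 fell from GD60 to GD90. Between GD45 and GD90, 4 were higher. Over all genes 9.35%, 21.4% and 28.3% were called higher in these comparisons. From GD60 to GD90 the 3 that rose gave log2 changes of 0.71 to 1.23 and the 1 that fell gave -0.38. The list thus mixes genes that moved apart, and values relative to it depend on its make-up. NEFL's own change of 1.36 in that step was near the largest of the list. The mean log2 CPM of the list went from 7.82 through 8.14 to 8.55. Relative to that mean, NEFL was 0.96 higher on the log2 scale at GD90 than at GD60 (1.94-fold) and NEFH 2.49 higher (5.60-fold), each with an adjusted exact permutation p of 0.00974 over 18 tests. INA was 0.81 lower relative to the list at GD60 than at GD45, a log2 difference of -0.81 (adjusted exact permutation p = 0.0213), and -0.05 from GD60 to GD90 (0.848). PRPH gave -1.76 (adjusted exact permutation p = 0.0213) and -0.50 (0.0649). ENSSSCG00000009648 gave -0.74 (adjusted exact permutation p = 0.0195) and 0.78 (0.00974), so that GD90 and GD45 lay 0.04 apart. Between GD45 and GD60 NEFL and NEFH gave -0.23 and 0.23, neither past the threshold. The gain of NEFL over GD45 at GD90, 0.72 (adjusted exact permutation p = 0.0156), was 0.30 (adjusted p = 0.302) when the median of the list was used in place of its mean. The list mean also differed between libraries of a day, alongside coverage of last exons (their median share of exon counts over 1292 genes). At GD45 the mean was 6.87 in male replicate 17 (share 69.3%) and 8.32 in male replicate 14 (51.9%). At GD90 it was 8.10 in female replicate 2 (60.1%) and 8.81 in male replicate 10 (46.1%). The part of this coverage in the relative values was not tested.

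No member was called between males and females at any day, where 0.0919%, 0.098% and 0.098% of all genes were called at GD45, GD60 and GD90. The log2 differences of males against females were below 0 for all 4 named members at GD45 (-0.79 to -0.28, lowest edgeR adjusted p 0.995) and at GD60 (-0.53 to -0.36, lowest adjusted p 0.779). INA alone had an unadjusted edgeR p under 0.05 at both days (0.0394 and 0.0103). At GD60 the male was below the female of the same litter size in 3 of 3 pairs for each named member and for ENSSSCG00000009648, and at GD45 in 2 of 3 pairs for each. With litter as a fixed block in edgeR no sex difference of the named members was called either (lowest adjusted p 0.725 at GD60 and 0.993 at GD45). At GD90 the differences lay between -0.04 and 0.31. Separately, NEFL rose 2.25-fold in females and 2.92-fold in males from GD60 to GD90, NEFH 5.87-fold and 8.64-fold, and INA 1.14-fold (adjusted p = 0.275) and 1.43-fold (adjusted p = 0.00491), in edgeR, in which 27.1% of genes were called in females and 34.5% in males. The sex-by-day terms for this interval were all above 0 (0.33 to 0.80 on the log2 scale) but none passed (lowest edgeR adjusted p 0.297). Over all genes 0 such terms (0%) were called by edgeR, so no difference between the sexes in these changes was detectable at this size. Of the 16325 terms, however, 3232 had an unadjusted edgeR p under 0.05, against 333 of those for GD45 to GD60. The reason was not tested. From GD45 to GD60, INA fell in females (-0.45, edgeR adjusted p = 0.0381) and males (-0.54, 0.0175) and PRPH in females (-1.74, 0.0346), with -1.44 (0.099) in males, against 7.22% and 5.61% of genes called. Of 18 fits that each left out a single library, the INA call ended in 9 for females and 3 for males, and the PRPH call in females in 5. Between GD45 and GD90 PRPH fell in females (-2.31, edgeR adjusted p = 0.00132) and, near the threshold, in males (-1.20, 0.0477), against 38.8% and 47.8% of genes called.

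The spread of PRPH at GD45 followed that of the HOX genes, the position genes of the hindbrain and spinal cord. The summed CPM of 9 HOX genes was 106 in female replicate 13, 45.9 in female replicate 18, 26.8 in male replicate 11, 8.74 in female replicate 12, 3.49 in male replicate 17 and 0 in male replicate 14. PRPH held the same rank as this sum in 6 of 6 GD45 libraries, NEFH in 4, and NEFL and INA in 2 each. In the order of the HOX sum, NEFH ranked 1, 3, 2, 4, 5 and 6 and NEFL 1, 3, 2, 4, 6 and 5. INA ranked 2, 1, 3, 4, 6 and 5, so the other named members followed nearly the same order. At GD60 the sum was 0 to 3.97 CPM and at GD90 0.129 to 1.36 CPM. Of the 9 HOX genes, 8 were tested and all 8 fell from GD45 to GD60, where 7.37% of all genes tested were called lower. The 14 markers of peripheral, cranial motor and sensory neurons summed to 32.9 to 54.0 CPM at GD45, 26.6 to 37.7 at GD60 and 29.96 to 40.8 at GD90, and of the 11 tested 2 fell and none rose from GD45 to GD60. The most abundant were SLC18A3, the vesicular acetylcholine transporter, and ISL1, a motor and sensory neuron factor, while SCN10A (a sensory neuron sodium channel), ISL2 and MNX1 (motor neuron factors) were near 0 and not tested. The 3 GD45 libraries above 10 CPM of HOX also held the 3 highest GD45 values of PRPH, INA, NEFH and NEFL, so leaving them out lowers the GD45 level of each by construction, and it leaves 1 female and 2 males at that day. Without them the GD60 against GD45 log2 change was -0.91 for PRPH (edgeR adjusted p = 0.151), -0.37 for INA (0.0625) and 1.18 for NEFH (0.0229). The rise of NEFL, NEFH and INA to GD90 compares GD90 with GD60, but the GD45 libraries are part of the same fit and enter its spread. The part of hindbrain or cord tissue in the GD45 values was not tested.

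**Figure D4:**
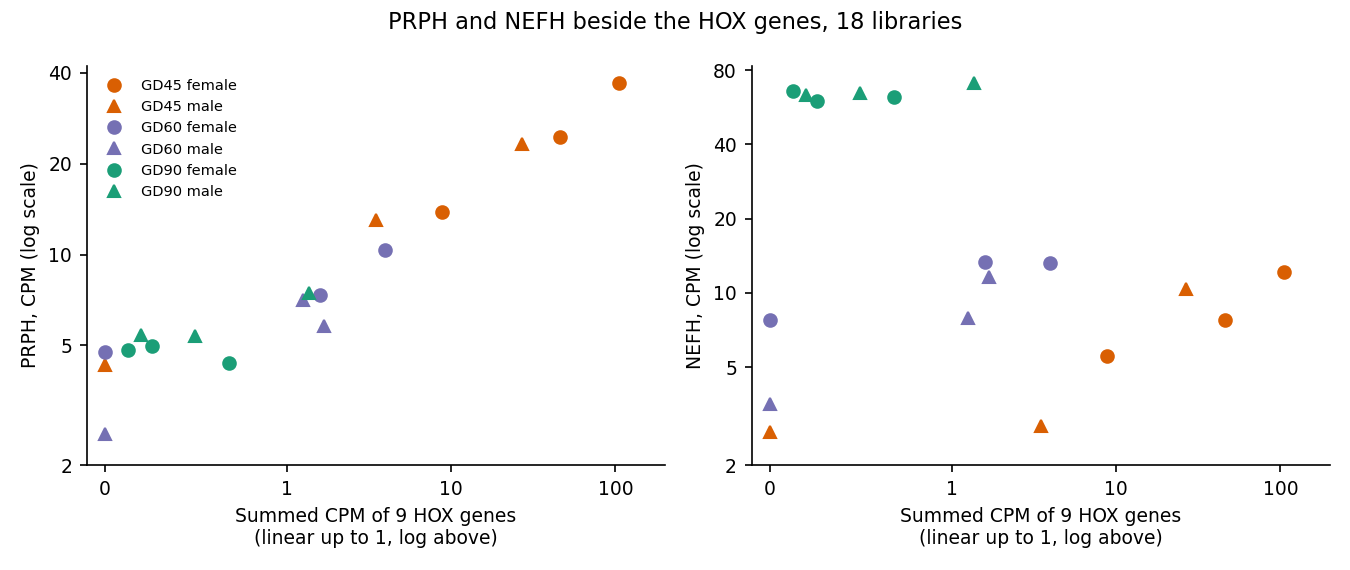
PRPH (left) and NEFH (right) in CPM on log axes against the summed CPM of 9 HOX genes (linear to 1, log above), 1 point per library, colours for days and shapes for sexes. PRPH runs from 4.31 to 37.0 CPM over the GD45 libraries in the same order as the HOX sum, whereas NEFH at GD90 is at 59.99 to 70.9 CPM with a HOX sum of at most 1.36.

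The genes most like each member were taken by Pearson's r of log2 CPM over the 18 libraries among 12808 named genes with a mean of at least 1 CPM. This describes the shared course over 3 ages and is not a test. NEFL and NEFH were each other's closest gene (r = 0.987, and 0.903 after the group means were removed). NEFL was followed by SCG2 (secretogranin, a granule protein), RASD2, BHLHE41 and NAP1L2, at 0.985 to 0.972. NEFH was followed by LPL, RASD2, LGR6 and SCG2, at 0.978 to 0.977. INA had no such close partner: FRZB, a secreted WNT antagonist, led at 0.888 and the last of its 5 nearest, EBAG9, was at 0.821. PRPH lay nearest to HOXB3 (0.952), HOXA3 (0.939), HOXC4 (0.932) and HOXB5 (0.906). Within the set, r over the 18 libraries was 0.32 for NEFL and INA, 0.66 for INA and PRPH and -0.23 for NEFL and PRPH. Over the GD45 libraries alone these values were 0.81, 0.92 and 0.72.

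The exon table gives a second view of the same reads. It holds 96.2% of the gene-table counts of INA, 51.6% of NEFH, 42.6% of PRPH, 26.5% of ENSSSCG00000009648 and only 3.58% of NEFL. The exon values of NEFL thus cover a small part of its reads. INA has 1 annotated transcript and the others 2 each, and the reason for these shares was not tested. The transcript table holds 100% of INA, 30.6% of NEFH, 24.9% of ENSSSCG00000009648, 0.127% of PRPH and 0.0982% of NEFL and is not used for the members. Exons of the named members were called 0 times higher and 2 times lower from GD45 to GD60 (2% of all exons tested were called, 1.19% higher and 0.805% lower), 8 times higher and never lower from GD60 to GD90 (12.6% called, 6.34% higher and 6.24% lower), and 10 times higher and 5 times lower between GD45 and GD90 (30.7% called, 15.5% higher and 15.2% lower). The 125-base exon printed above rose from GD60 to GD90 by 1.69 on the log2 scale in NEFL (2679 counts over the libraries, edgeR adjusted p = 9.31e-05), and in INA it gave 0.93 on 1689 counts (0.0617). In INA the last exon was lower at GD90 than at GD45 (log2 change -0.55, edgeR adjusted p = 0.0442) and the first was not (0.23, 0.599). The first exon took 2.70% to 26.8%, 10.9% to 28.4% and 15.2% to 32.1% of INA's exon counts at the 3 days. Coverage of last exons differed between libraries in general: their median share over 1292 well-covered genes was 51.9% to 69.3% at GD45 and 46.1% to 60.1% at GD90, highest in GD45 male replicate 17. Its part in the exon values was not tested.

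Other intermediate filament genes were more often lower than higher with age. Of 12 tested, 2 were higher and 6 lower at GD60 than at GD45, 4 higher and 6 lower at GD90 than at GD60, and 2 higher and 6 lower at GD90 than at GD45 (median log2 change -0.71, against -0.03 over all genes). In these comparisons 9.35%, 21.4% and 28.3% of all genes tested were called higher, and 7.37%, 20.9% and 29.3% lower. NES (nestin), the filament of neural progenitors, fell by 2.31 on the log2 scale between GD45 and GD90, LMNB1 (lamin B1, of the nuclear lamina) by 2.22 and KRT8, a keratin, by 1.98. GFAP, the astrocyte filament, rose by 4.49 (22.4-fold) and BFSP1, known from the lens, by 1.78, each with an edgeR adjusted p of at most 7.37e-06.

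Genes of the kinases and phosphatases that act on filament tails were mostly higher at GD90 than at GD45. Of 14 tested, 11 were higher and 1 lower (median 0.36), against 28.3% of all genes called higher and 29.3% lower. In the first step 4 were higher, none lower and 10 not called, against 9.35% of all genes higher. In the second step 8 were higher and none lower, against 21.4% of all genes higher. CAMK2A and CAMK2B, subunits of the calcium-dependent kinase CaMKII, rose by 3.40 (edgeR adjusted p = 7.58e-15) and 2.26 (3.93e-10) in log2 units. CDK5R2 and CDK5R1, activators of the tail kinase CDK5, rose by 1.68 and 0.71 (edgeR adjusted p = 5.58e-08 and 0.0324). CDK5 itself is missing by name. Among 16 genes of filament transport, linkage and turnover, 5 were higher, none lower and 11 not called in each step. Over the whole span 9 were higher and 3 lower (median 0.31), against the same shares over all genes. KIF5A and KIF5C, motors that carry cargo along axons, rose by 1.74 and 0.95 and DST and PLEC, plakin linkers, by 1.12 and 0.93, each with an edgeR adjusted p of at most 4.2e-05.

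**Figure D5:**
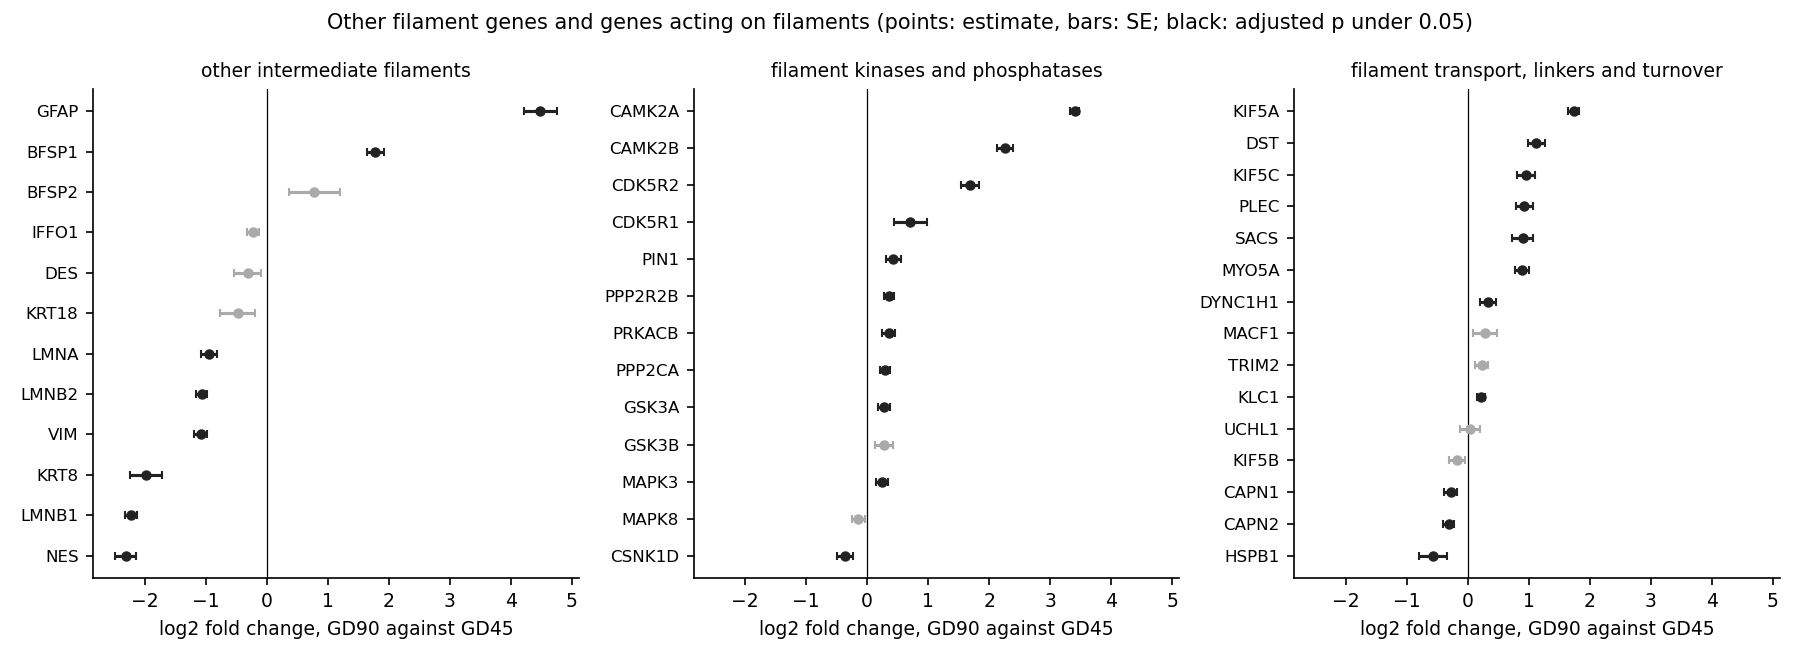
Log2 fold change of GD90 against GD45 (points, with SE bars) from edgeR for other filament genes and for genes that phosphorylate, carry or turn over filaments, black where the adjusted p is under 0.05. GFAP (4.49) and CAMK2A (3.40) lie farthest to the right and NES (-2.31) and LMNB1 (-2.22) farthest to the left.

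Markers of other cell types moved with age in the same libraries. From GD60 to GD90, 21.4% of all genes tested were called higher and 20.9% lower. All 7 oligodendrocyte genes tested rose from GD60 to GD90, and their summed level went from 82.1 to 117 CPM at GD60 to 1896 to 3226 CPM at GD90, the most abundant being the myelin gene MBP. All 6 astrocyte genes, led by GFAP and AQP4, and all 7 microglia genes, led by CSF1R and C1QB, rose in that step too. Of 7 progenitor genes, led by PAX6 and EOMES, 6 fell, and of 6 erythroid genes, led by HBB and ALAS2, 4 fell and none rose. Of 6 Schwann cell genes 2 rose, among them SOX10, which oligodendrocytes also express, and 1 fell, PRX. These shifts run beside every change from GD60 to GD90 above, and their part in it was not tested. The pan-neuronal comparison does not measure the share of neurons, since the genes of its list moved apart in that step.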

How the data were processed

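RNA of whole fetal pig brains (6 groups of sex and gestation day, 3 fetuses each) was sequenced as paired-end reads. Per the study's methods, the authors trimmed reads with Trimmomatic, used HISAT2 to align them to Sscrofa11.1, and assigned them to Ensembl features by featureCounts. What the authors deposited are unnormalized counts per gene, exon and transcript. Options for strand and for reads with several matches are not given in the sources used here. The 22 columns were summed to 18 libraries. Precision is limited by the totals given above and by 3 fetuses per group.

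Counts were fitted here with edgeR 4.0.16 in R 4.3.3 (filterByExpr, TMM, quasi-likelihood F test, 6 groups, day effects averaged over sexes), with a threshold of 0.05 on the Benjamini-Hochberg adjusted p over all 16325 genes tested. Calls were checked with DESeq2 1.42.0 and limma 3.58.1. The step was tested on simulated counts. Log2 ratios were taken of counts + 0.5 without gene length and compared by two-sided exact permutation tests. Only the percentages of NEFL are per length. Log2 CPM used a prior count of 2. Sequences come from the genome and RefSeq annotation of Sscrofa11.1. The authors' methods name a paired-sample edgeR analysis. Which samples were paired is not given, so the main fit has no pairs. Named genes were the members, up to 5 genes with the largest change between GD90 and GD45 from each of 3 pathway lists, the 2 most abundant of marker lists, and the 5 genes most like each member. A few items that these rules name are not reported here. Members and lists were chosen with earlier results of these data known. The unnamed gene, the 3 GD45 libraries left out for HOX and the median of the pan-neuronal list were chosen after values were seen.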

Additional observations from a re-analysis of the deposited data

Results flagged for a closer look

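In all, 5 values stood apart from the other 5 libraries of their day in Dixon's test, out of 42 groups of 6 tested, of which chance gives about 5%. All are in males. PRPH at GD90 was at a log2 CPM of 2.91 in male replicate 1, against 2.46 in the next library. Male replicate 14 at GD45, which had no HOX reads, gave a log2 ratio of PRPH to NEFL counts of -5.45 (next -3.98). In the same library PRPH relative to the pan-neuronal mean was -6.23 (next -4.00) and NEFH relative to it was -6.86 (next -5.29). NEFH relative to the pan-neuronal mean at GD60 was -5.86 in male replicate 16, against -4.88 in the next. The cause was not tested.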

How the results depend on the processing

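The rise of NEFL and NEFH from GD60 to GD90 held its direction and its call in each of the 29 alternatives, with log2 changes of 1.28 to 1.85 and 2.67 to 3.02, and so did that of INA (0.31 to 0.41). No result reversed while called, and of 1050 values of the sex comparisons under alternative settings none changed a call. That number counts each gene or count of members, comparison and setting separately, so the refits were far fewer. The counts and ratios of the first step, from GD45 to GD60, moved as follows. Without the 3 GD45 libraries above 10 CPM of HOX (chosen after seeing the data, and also the 3 highest in each named member at that day), 1 named member was higher and 0 lower, and the NEFH to NEFL log2 ratio difference was 0.90 (adjusted exact permutation p = 0.0429). Exon sums gave 0.68 (0.0173) for that ratio and -0.43 (0.227) for INA to NEFL. Leaving out 1 library at a time gave 0 to 1 named members higher (1 without GD45 male replicate 11) and 0.30 to 0.60 for the NEFH to NEFL ratio, called among these only without GD60 male replicate 16 (0.60, adjusted exact permutation p = 0.0472). Without a filter on low counts 1 exon was higher, and without the GD45 litter of 8, 1 was lower. Other steps moved too. The gain of NEFH on NEFL from GD60 to GD90 was smallest with exon sums, at 0.79 on the log2 scale. Those sums hold 3.58% of NEFL's counts and 51.6% of NEFH's. The call of PRPH in males between GD45 and GD90 ended in 11 of the 18 fits that left out a single library. From GD60 to GD90, the ratio of ENSSSCG00000009648 to NEFL was called with exon sums and without GD60 female replicate 15, and PRPH relative to the pan-neuronal list was called with the median of the list, without DCX, GAP43 and STMN2, and without GD60 male replicate 16. Fetuses paired by litter size deviated together in part, with r from -0.09 to 0.42, above 0 in 7 of 9 pairs and above 0.1 in 5, and a litter correlation of 0.104 in limma. As not every pair passed 0.1, the pairing was not used for the main values. Gestation day differs only between litters, so the main day tests treat possible littermates as independent. With the litter as a replicate block in limma, PRPH was no longer called in females from GD45 to GD60 (-1.69, adjusted p = 0.0544) or in males between GD45 and GD90 (-0.92, adjusted p = 0.196), while the other calls of the members stayed. Depth limits NEFH and PRPH most, with at least 42 counts of either in a library.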
